A study of Homo sapiens with 12 samples.

Results

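The transcript levels of 7 genes, PTK7, MED24, DHRS1, LRRC41, EML2, ANO8 and IGSF9, were followed in 12 libraries of HaCaT cells, a spontaneously immortalized line of human skin keratinocytes. They were chosen on their measured levels, because the level in the dark cultures matched to 42 irradiations lay below that in the dark cultures matched to 3 and to 14 irradiations and below that in the cultures irradiated 42 times. The 7 genes are 7 of 45372 rows in the deposited table and 7 of the 12878 genes with enough counts to be tested. All 12 libraries came from wild-type HaCaT cells grown with 10% serum. The groups blue_3, blue_14 and blue_42 received 408 nm light at 4.6 mW per cm2, 50 J per cm2 in each session, for 3, 14 or 42 sessions. Sessions were held 3 times a week for at most 14 weeks, at a dose that the submitters set for 50% cell death. The groups dark_3, dark_14 and dark_42 are the controls labelled for the same numbers of sessions, and each group had 2 libraries, lettered a and b. The labels do not say whether the letters mark separate cultures, so the errors and p-values below measure the spread between libraries, which may be technical. The number of sessions, the time in culture and any date of collection cannot be told apart among the dark groups, because no label separates them.

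The 7 genes belong to different cellular systems. Keratinocytes in skin lie in sheets whose cells are polarized in the plane of the tissue and held together by adhesion proteins, and planar polarity is set by a branch of Wnt signalling that does not act through beta-catenin. PTK7 is a receptor-like protein of that branch with a kinase domain that has lost its catalytic activity. IGSF9 is an adhesion protein of the immunoglobulin superfamily, studied mostly in neurons. MED24 is a subunit of Mediator, the complex that links transcription factors to RNA polymerase II. LRRC41 is a leucine-rich repeat protein that binds elongins B and C, adaptors of cullin ubiquitin ligases. DHRS1 is a short-chain dehydrogenase/reductase, EML2 binds microtubules, and ANO8 is an anoctamin that tethers the endoplasmic reticulum to the plasma membrane.

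The genes lie at separate places in the genome (GRCh38, GENCODE release 29), and all are annotated as protein coding. PTK7 (ENSG00000112655) spans chr6:43076268-43161719 on the plus strand. The others are on the minus strand. MED24 (ENSG00000008838) lies at chr17:40019097-40061215, DHRS1 (ENSG00000157379) at chr14:24290598-24299833 and LRRC41 (ENSG00000132128) at chr1:46261196-46303608. EML2 (ENSG00000125746) lies at chr19:45606994-45645629, ANO8 (ENSG00000074855) at chr19:17323223-17334829 and IGSF9 (ENSG00000085552) at chr1:159927039-159945604. On the opposite strand, MED24 overlaps THRA over 2926 bases, LRRC41 overlaps RAD54L over 17278, EML2 overlaps EML2-AS1 over 1347 and ANO8 overlaps DDA1 over 79. No source used here says whether the counting used strand, so reads in those overlaps cannot be assigned with certainty.

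RefSeq promoter windows, from 250 bases before to 50 after the annotated start, were found for 6 of the 7 genes. A GC box (GGGCGG on either strand) was present in 3 of the 6 windows, those of PTK7, DHRS1 and IGSF9, and in 70.5% of the windows of 10135 tested genes. A CCAAT box (CCAAT on either strand) was present in 4, those of MED24, LRRC41, EML2 and IGSF9, and in 37.1% of the tested windows. The palindrome CCAATTGG of IGSF9 holds overlapping CCAAT matches on both strands. No window held a TATA box (TATAAA), which 5.65% of tested windows held. IGSF9 was the single gene with both a GC box and a CCAAT box. The stretches below show this mixture, with matches to either motif in capitals. They are read 5′ to 3′ on the gene's strand, from RefSeq on GRCh38.p14, with positions counted back from the annotated start. PTK7 is shown from base -250 to -51 (chr6:43076064-43076263, plus strand) and IGSF9 from -250 to -1 (chr1:159945614-159945863, minus strand). For MED24 (-46 to -17, chr17:40054425-40054454, minus strand) and DHRS1 (-33 to -17, chr14:24299797-24299813, minus strand) only the stretch that spans the 2 matches before the RefSeq start is shown. The GENCODE spans given above start further upstream for MED24 and DHRS1, so these 2 stretches lie inside them.
PTK7: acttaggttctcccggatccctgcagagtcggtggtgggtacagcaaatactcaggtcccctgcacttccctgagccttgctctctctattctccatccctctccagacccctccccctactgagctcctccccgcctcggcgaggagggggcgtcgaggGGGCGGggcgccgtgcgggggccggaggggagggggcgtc
IGSF9: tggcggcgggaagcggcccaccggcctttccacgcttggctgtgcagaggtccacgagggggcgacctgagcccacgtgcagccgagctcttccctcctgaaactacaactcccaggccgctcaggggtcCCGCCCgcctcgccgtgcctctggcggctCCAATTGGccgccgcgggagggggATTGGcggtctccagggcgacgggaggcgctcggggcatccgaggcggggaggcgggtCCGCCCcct
MED24: ATTGGttggcgtttgttactcccagCCAAT
DHRS1: CCGCCCcagccGGGCGG
PTK7 and DHRS1 thus carry GC boxes, MED24 an inverted pair of CCAAT boxes, and IGSF9 both kinds. These are letter matches, and no binding was measured here.

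The shallowest library, blue_14 b, held 2073160 counts and the deepest, blue_42 b, held 8183941. The dark_42 libraries differed from the other 10 in features beyond the 7 genes. Transcripts encoded by the mitochondrial genome made up 12.6% and 12.4% of their counts, against 13.7% to 16.1% elsewhere, and their scaling factors (TMM, trimmed mean of M values) were 1.02 and 1.06, against 0.979 to 1.01. The summed level of 24 keratinocyte markers, all 24 tested, was 9423 and 8800 CPM (counts rescaled so that libraries of unequal depth can be compared) in dark_42 and 10140 to 12125 in the other libraries. The summed level of 26 neuronal markers was 157 and 115 in dark_42, 152 and 131 in blue_42 and 174 to 317 elsewhere. The sum of 14 glial markers, of which 6 were tested, was 246 and 252 in dark_42 and 276 to 379 in the other libraries, with MOG and OLIG2 at 0. Sums of the other lists were low and did not set dark_42 apart. They were 4.28 to 13.2 CPM for 14 leukocyte markers (PTPRC and CD3D at 0), 10.6 to 16.4 for 7 melanocyte markers (MLANA, TYR and TYRP1 at 0) and 0.793 to 6.21 for 8 endothelial markers (TEK at 0). The 14 fibroblast markers summed to 51.4 to 112 CPM, with DPT and POSTN at 0. The sum of 7 erythroid markers (ALAS2, HBG1 and HBG2 at 0) was uneven, from 0.951 to 44.1 CPM. Its highest value was in dark_14 b, beside 5.16 in dark_14 a and 1.66 and 1.30 in dark_42. The part of these features in the levels of the 7 genes was not tested.

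Levels are given in CPM after TMM scaling. The library chemistry, QuantSeq 3′ sequencing, yields about 1 tag per transcript, so these levels can be set beside each other without scaling by length. By mean level over the 6 groups, DHRS1 (108 CPM), MED24 (99.9) and PTK7 (95.5) were the most abundant of the 7, followed by EML2 (50.6), LRRC41 (26.4), IGSF9 (20.3) and ANO8 (9.77). The group mean was lowest in dark_42 for all 7 genes, and both dark_42 libraries lay below every library of dark_3, dark_14 and blue_42 for 7 of 7. That pattern was met by 9.17% of the tested genes, and the looser one, a dark_42 mean below the 3 other means, by 25.3%. Since this is how the genes were chosen, nothing is read from these counts. Against all 10 other libraries, both dark_42 libraries were lowest for 6 of the 7 genes. Over all tested genes this share was 5.65%, but 6 of the 10 libraries entered the choice, so nothing is read from that either. LRRC41 was the exception, so for it the low level was not limited to dark_42. In bulk RNA, fewer cells that express a gene and less RNA per cell cannot be told apart.

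**Figure D1:**
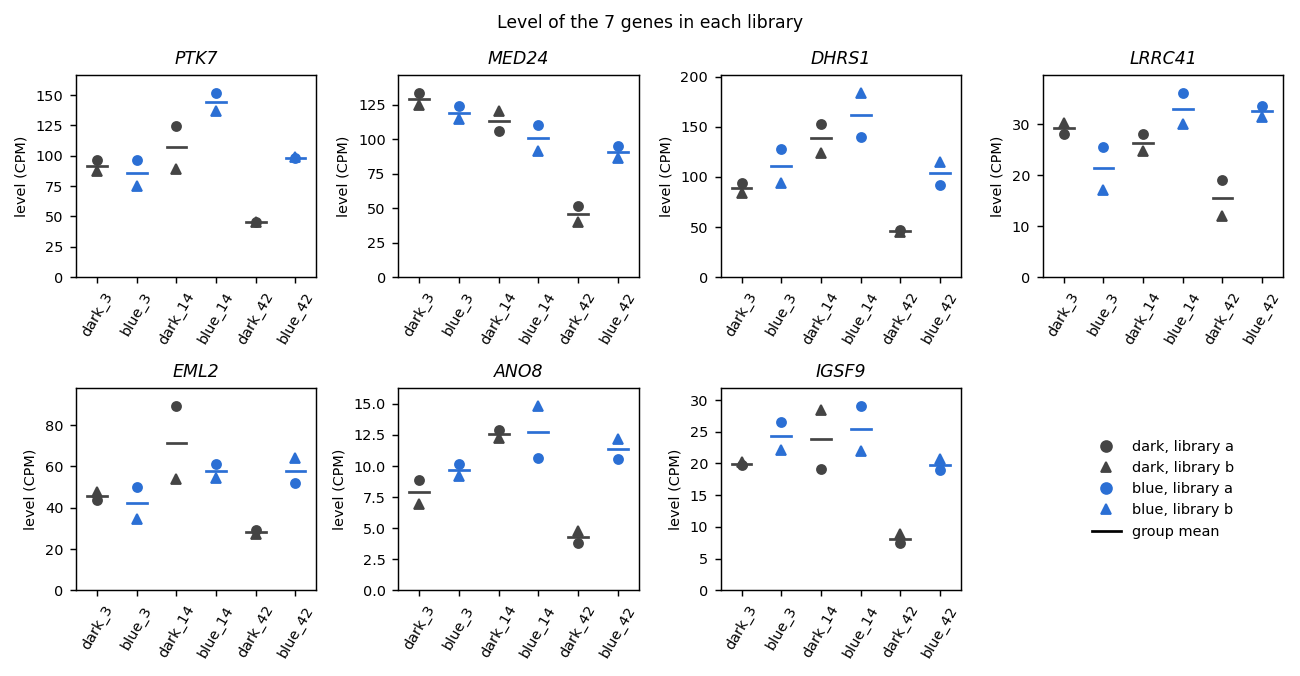
Level of each of the 7 genes in CPM (vertical axis, linear from 0, a separate scale for each gene) in the 12 libraries, with circles for library a, triangles for library b and a line at the group mean. The dark_42 points are the lowest in 6 panels, while for LRRC41 the dark_42 a library (19.1) lies above the blue_3 b library (17.2).

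PTK7, the receptor-like protein of planar polarity, had 45.3 and 45.6 CPM in dark_42. It had 96.4 and 87.4 in dark_3, 125 and 89.4 in dark_14, and 97.9 and 98.9 in blue_42. The remaining irradiated libraries had 96.3 and 75.3 (blue_3) and 152 and 137 (blue_14). The dark_42 pair was thus tight and clear of the next group, blue_3, and the blue_14 pair was clear of all others at the top. In between, blue_3, dark_3 and dark_14 overlapped each other, and blue_42 lay within the range of dark_14.

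IGSF9, the adhesion protein, was at 7.43 and 8.84 CPM in dark_42 and between 19.0 and 29.02 CPM in the other 10 libraries. Its blue_42 libraries had 19.0 and 20.6, and its dark_3 libraries 19.8 and 20.2. Each of the 5 higher groups overlapped its neighbour in the order of levels, so dark_42 was the one group set apart. The dark_42 mean was 40.7% of the dark_3 mean and 41.1% of the blue_42 mean.

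MED24, the Mediator subunit, had 51.7 and 39.8 CPM in dark_42 and 95.2 and 86.2 in blue_42. Its highest group was dark_3, with 134 and 125, followed by blue_3 with 124 and 114, dark_14 with 106 and 120, and blue_14 with 110 and 91.2. Both the dark and the irradiated group means were therefore lower at larger session numbers. The blue_42 mean of 90.7 ± 6.34 CPM (SD, n = 2) was 70.1% of the dark_3 mean, whereas for the other 6 genes it was between 99.1% and 144%.

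LRRC41, the elongin-binding protein, had 19.1 and 11.97 CPM in dark_42 and 25.6 and 17.2 in blue_3. These groups overlapped. Its other libraries lay between 24.8 and 36.2 CPM, with 28.2 and 30.2 in dark_3, 28.1 and 24.8 in dark_14, 36.2 and 30.1 in blue_14 and 33.7 and 31.4 in blue_42. The dark_42 mean was 53.1% of that of dark_3 and 47.7% of that of blue_42.

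DHRS1, the dehydrogenase/reductase, had 47.3 and 45.5 CPM in dark_42, 94.0 and 84.4 in dark_3, 153 and 124 in dark_14, and 92.2 and 115 in blue_42. The blue_3 libraries had 128 and 93.7 and the blue_14 libraries 140 and 184. Dark_42 stood apart at the bottom, and each of the other groups overlapped the next in the order of levels.

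EML2, the microtubule-binding protein, was at 29.5 and 27.4 CPM in dark_42, 50.2 and 34.6 in blue_3 and 43.8 and 47.4 in dark_3. It was at 61.2 and 54.4 in blue_14, 51.8 and 64.0 in blue_42, and 89.1 and 53.9 in dark_14. Library dark_14 a was therefore the highest of the 12, and the dark_14 pair differed more than any other pair of this gene. The step from the higher dark_42 library (29.5) to the lower blue_3 library (34.6) was small beside that within blue_3.

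ANO8, the membrane tether, had the fewest counts of the 7, with 30 and 37 reads in the dark_42 libraries. These corresponded to 3.84 and 4.81 CPM, against 8.88 and 6.91 in dark_3, 12.9 and 12.3 in dark_14, and 10.6 and 12.1 in blue_42. In these libraries 3 counts correspond to 0.364 to 1.43 CPM, so the values lie above the counting floor. The blue_3 libraries had 10.2 and 9.23 and the blue_14 libraries 10.6 and 14.8. Dark_42, dark_3, blue_3 and blue_42 followed each other in this order of levels without overlap. At the top, blue_14 overlapped both dark_14 and blue_42.

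Expressed as log2 differences from one model over all libraries, dark_42 minus dark_3 was between -1.50 ± 0.13 (SE) for MED24 and -0.68 ± 0.23 for EML2. The values for the other genes were -1.30 ± 0.20 for IGSF9, -1.01 ± 0.15 for PTK7, -0.94 ± 0.17 for DHRS1, -0.91 ± 0.20 for LRRC41 and -0.86 ± 0.25 for ANO8. Dark_42 minus dark_14 was between -1.60 ± 0.20 for IGSF9 and -0.75 ± 0.21 for LRRC41. The reverse step, blue_42 minus dark_42, lay in a narrow range from 0.99 ± 0.13 for MED24 to 1.39 ± 0.23 for ANO8, so dark_42 levels were 38.1% to 50.5% of those in blue_42. These 3 differences share the dark_42 libraries and chose the genes, so they carry no test. Over all tested genes, the edgeR quasi-likelihood test with Benjamini-Hochberg adjustment called 17.7%, 7.04% and 1.23% in them respectively, at an adjusted p under 0.05.

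The choice stopped at no natural break. Among 10047 genes with a mean of at least 5 CPM, ranked by how far the lowest of the dark_3, dark_14 and blue_42 means lay above dark_42, IGSF9 ranked 4, PTK7 6, MED24 9, DHRS1 12, ANO8 17, LRRC41 35 and EML2 56. The log2 margin was 1.28 for IGSF9 and 0.68 for EML2. In all, 49 genes outside the 7 had a larger margin than EML2, among them NCSTN at 1.31, a subunit of gamma-secretase. Just outside EML2, MOSPD3 had a margin of 0.68 as well.

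**Figure D2:**
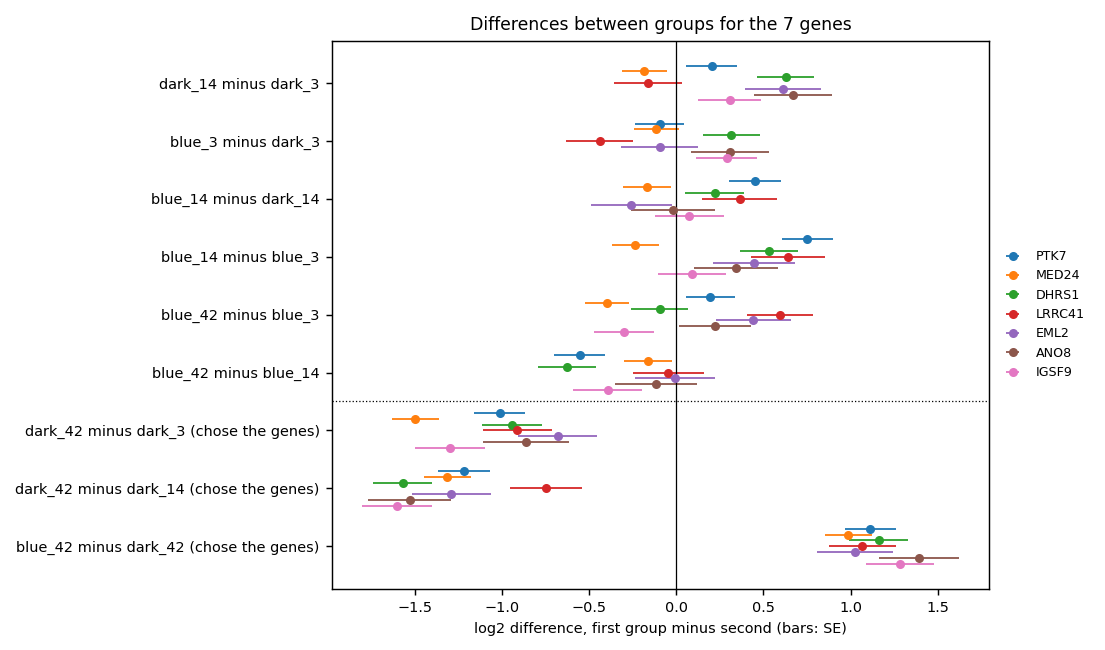
Log2 difference between groups (horizontal axis, first group minus second, bars SE) for the 7 genes in 9 comparisons, with the 3 that chose the genes under the dotted line. Above the line the points lie between -0.63 and 0.75 on both sides of 0, and below it they lie from -1.60 to -0.68 or from 0.99 to 1.39.

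Comparisons that leave out dark_42 were not used in the choice and were tested. The choice did require dark_3, dark_14 and blue_42 to be above dark_42, so only blue_14 minus blue_3 uses none of its groups. In that comparison PTK7 rose in irradiated cultures between 3 and 14 sessions, by 0.75 ± 0.15 on the log2 scale (adjusted p = 0.00613, edgeR), from 85.8 ± 14.9 to 144 ± 10.7 CPM (SD, n = 2 each). Both blue_14 libraries were above both blue_3 libraries, as they were for 25.6% of all tested genes. The call was lost without library blue_3 b (0.58, adjusted p = 0.108, edgeR). LRRC41 (0.64 ± 0.21, adjusted p = 0.0798) and DHRS1 (0.53 ± 0.17, adjusted p = 0.0681) did not pass the same edgeR test. Their libraries were separated in the same way, a pattern as common over all tested genes as just given. LRRC41 passed without blue_3 a (0.95), dark_42 a or dark_42 b (0.64 in each case), and DHRS1 without blue_14 a (0.72) or blue_3 a (0.75). Both passed with no filter on low counts (adjusted p = 0.0125 for LRRC41 and 0.00372 for DHRS1, edgeR). EML2 differed by 0.45, ANO8 by 0.34, IGSF9 by 0.09 and MED24 by -0.23. With 1 of 7 genes called, against 6.22% of all tested genes, the median difference of the 7 was 0.45, beside 0.01 over all tested genes.

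Among the dark cultures, DHRS1 rose between dark_3 and dark_14, by 0.63 ± 0.16 on the log2 scale (adjusted p = 0.0208, edgeR), from 89.2 ± 6.80 to 139 ± 20.6 CPM. The call was lost without dark_14 a (0.45, adjusted p = 0.207), dark_3 a (0.70, adjusted p = 0.0829) or dark_3 b (0.55, adjusted p = 0.160), each by edgeR. ANO8 (0.67 ± 0.22, adjusted p = 0.0529) and EML2 (0.61 ± 0.22, adjusted p = 0.0882) missed the threshold of the edgeR test. EML2 passed without dark_14 b (0.96) and with no filter (adjusted p = 0.00109, edgeR), and ANO8 without blue_14 a, dark_42 a or dark_42 b (0.66 in each) and in a fit on the compared libraries alone (adjusted p = 0.0312, edgeR). PTK7 differed by 0.20, IGSF9 by 0.31, LRRC41 by -0.16 and MED24 by -0.18. The share of 1 in 7 was near the background, since 12.7% of all tested genes were called here. For 5 of the 7 genes the dark cultures had a higher mean at 14 sessions than at 3. Of all tested genes, 52.1% had a difference above 0 here. The low level at 42 sessions was fixed by the choice.

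Blue light against dark at the same number of sessions gave no call among the 7 genes at 3 or 14 sessions, by edgeR or DESeq2. At 3 sessions the differences lay between -0.44 (LRRC41) and 0.32 (DHRS1), with adjusted p from 0.676 to 0.949 by edgeR. Of all tested genes 0.0155% were called. At 14 sessions they lay between -0.26 (EML2) and 0.45 ± 0.15 (PTK7), with adjusted p from 0.767 to 1.00, and the edgeR test called 0 of 12878 genes (0%), with 758 at an unadjusted p under 0.05. DESeq2 called 2 genes there. At an unadjusted edgeR p under 0.05 the 7 genes gave 1 in each comparison, LRRC41 at 3 sessions and PTK7 at 14. Over all 12878 tested genes the counts were 891 and 758. The difference between these light effects, tested as an interaction in edgeR, passed for 0 of the 7 and for 0.0388% of all genes. Of the 7, 2 were at an unadjusted p under 0.05, with no count over all genes made at that threshold.

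In irradiated cultures the 7 genes gave no call between 3 and 42 sessions by edgeR or DESeq2, where edgeR called 7.78% of all genes. At an unadjusted edgeR p under 0.05 there were 2 of the 7, and 2835 of the 12878 tested genes. LRRC41 was higher in blue_42 by 0.59 ± 0.19 (adjusted p = 0.0586, edgeR) and MED24 lower by -0.40 ± 0.13 (adjusted p = 0.0630, edgeR), and the others lay between -0.30 and 0.44. Both values sat near the threshold. LRRC41 passed without blue_3 a (0.91), dark_42 a or dark_42 b (0.59 in each), and MED24 without either blue_14 library or either dark_42 library (-0.40 in each). With no filter, LRRC41 (adjusted p = 0.00433), MED24 (0.0283) and EML2 (0.0253) passed the edgeR test. On the compared libraries alone, LRRC41 (adjusted p = 0.0121) and MED24 (0.0214) did. MED24 also passed without the 14-session libraries (adjusted p = 0.0402, edgeR). Between 14 and 42 sessions, where 0.241% of all genes were called, 0 of the 7 genes were called by either tool. Of the 7, 2 had an unadjusted edgeR p under 0.05, as did 1609 of the 12878 tested genes. All 7 differences were below 0, while 50.6% of all tested genes were above 0. Those of the 7 ran from -0.63 for DHRS1 (adjusted p = 0.127, edgeR) and -0.56 for PTK7 (adjusted p = 0.107, edgeR) to -0.01 for EML2. DHRS1 passed without blue_14 a (-0.82), and with no filter DHRS1 (adjusted p = 0.00109) and PTK7 (adjusted p = 0.00812) passed the edgeR test. None of these misses shows that the levels were equal, since the SE of a single difference was between 0.13 and 0.24.

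Over the 12 libraries the 7 genes varied together. Pearson's r between their log2 levels, over 21 pairs of genes, ran from 0.583 to 0.948 with a median of 0.822. These values describe libraries that share the dark_42 low point by choice. Of 8683 other genes with a mean of at least 10 CPM, the 10 whose profile was most like the mean profile of the 7 were CNOT11, TYK2, TMED9, MCRS1, LYPLA2, TBCB, STK25, RPS29, DGCR2 and UBE2Z, with r from 0.969 to 0.931. CNOT11 is a subunit of the CCR4-NOT deadenylase, TYK2 a Janus kinase, TBCB a tubulin-folding cofactor and RPS29 a protein of the small ribosomal subunit. For blue_42 minus dark_42 their log2 differences, from 0.28 (TMED9) to 0.88 (MCRS1), lay below those of the 7. That order does not hold against the other dark groups, since MCRS1 had 41.0 CPM in dark_42 beside 80.7 in dark_3, 89.4 in dark_14 and 75.8 in blue_42. TBCB had 39.4 CPM in dark_42, 75.5 in dark_3 and 71.4 in blue_42. RPS29 had 2126 CPM in dark_42 and 3255 in blue_42, and TMED9 had 202 and 246.

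Lists of related genes were drawn up for each of the 7, without the 7 themselves. Of 40 planar polarity and Wnt genes, 35 were tested. The list also held genes of the beta-catenin branch, such as CTNNB1 (beta-catenin itself), LRP5 and LRP6. In blue_42 minus dark_42 edgeR and DESeq2 both called 0 of the 35, with 6 at an unadjusted edgeR p under 0.05. In dark_42 minus dark_3 edgeR called 3 higher and 2 lower, and in dark_42 minus dark_14 it called 0. Over all 12878 tested genes, 1713 had an unadjusted p under 0.05 in blue_42 minus dark_42. The shares called were 17.7% in dark_42 minus dark_3 and 7.04% in dark_42 minus dark_14. The same backgrounds apply to the lists that follow. Both dark_42 libraries were below those of dark_3, dark_14 and blue_42 for 6 of the 35, beside 9.17% of all tested genes. The most abundant genes of the list were RAC1, a small GTPase with 920 CPM in dark_42 and 922 in blue_42, and DAAM1, a formin with 405 and 399. In blue_42 minus dark_42 the median of the list was 0.05, with 20 of the 35 genes above 0. Genes of the list went both ways, and some had values in the direction of PTK7. In the order dark_42 minus dark_3, dark_42 minus dark_14 and blue_42 minus dark_42, the log2 differences of the small GTPase gene RHOA, at a mean of 198 CPM, were -0.39, -0.42 and 0.42. Those of the Wnt receptor gene FZD7, at 4.82 CPM, were -0.66, -0.78 and 0.80. The polarity genes PRICKLE1 (-2.00, -1.17 and 0.34) and VANGL2 (-1.84, -1.80 and 1.57) were at means of 6.30 and 0.935 CPM. INVS (0.42, 0.41 and -0.52) and MMP14 (0.63, 0.25 and -0.21) went the other way, at means of 18.6 and 118 CPM.

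All 32 other Mediator genes were tested, and edgeR called 0 of them in blue_42 minus dark_42 (3 at an unadjusted p under 0.05, and 1 called by DESeq2), 1 higher and 5 lower in dark_42 minus dark_3, and 0 higher and 1 lower in dark_42 minus dark_14. The gene lower in both was MED27, another Mediator subunit, which averaged 203 CPM in dark_3, 181 in dark_14 and 110 in dark_42, beside 146 in blue_42. It fell by 0.88 on the log2 scale from dark_3 (adjusted p = 1.11e-05, edgeR) and by 0.72 from dark_14 (adjusted p = 0.000343, edgeR). Its difference between blue_42 and dark_42 was 0.41 (adjusted p = 0.0593, edgeR). MED27 was also the Mediator gene besides MED24 that had both dark_42 libraries below the other 3 groups. The median difference of the 32 genes between blue_42 and dark_42 was -0.03, against 0.00 over all tested genes.

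Of 43 genes for EML relatives, tubulins and other microtubule proteins, 40 were tested. The calls by edgeR were 1 higher and 0 lower in blue_42 minus dark_42, 2 higher and 7 lower in dark_42 minus dark_3, and 0 higher and 6 lower in dark_42 minus dark_14. TUBB, a beta-tubulin, was low in dark_42 like EML2, but between 3 and 14 sessions its dark mean was lower where that of EML2 was higher. Its dark libraries averaged 1622 CPM at 3 sessions, 1130 at 14 and 772 at 42, and blue_42 averaged 1255. The step from dark_42 to blue_42 was 0.70 ± 0.14 (adjusted p = 0.0115, edgeR), and dark_42 was lower than dark_3 by a log2 difference of -1.07 (adjusted p = 2.55e-05, edgeR). MAP2, a microtubule protein of neurons and one of the neuronal markers whose sum was low at 42 sessions, had 15.0 CPM in dark_42, 30.1 in dark_14 and 16.8 in blue_42.

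Among 41 tested genes of elongin and cullin ligases, edgeR and DESeq2 called 0 in blue_42 minus dark_42, with 6 at an unadjusted edgeR p under 0.05. By edgeR 5 were higher and 3 lower in dark_42 minus dark_3, and 2 higher and 1 lower in dark_42 minus dark_14. NEDD8, the ubiquitin-like activator of cullins, was lower in dark_42 than in dark_3 (-0.43, adjusted p = 0.0271) and dark_14 (-0.54, adjusted p = 0.0168). ASB13, a substrate receptor, was higher (0.67, adjusted p = 0.0152 and 0.69, adjusted p = 0.0322), all by edgeR. The list thus held genes that moved against LRRC41 as well as with it.

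Of 35 tested short-chain dehydrogenases, edgeR called 0 in blue_42 minus dark_42, with 5 at an unadjusted p under 0.05, and DESeq2 called 1. Against dark_3, edgeR called 7 higher and 1 lower in dark_42, and against dark_14 it called 0 higher and 1 lower. The latter was KDSR, a reductase of sphingolipid synthesis (-0.45, adjusted p = 0.0171, edgeR). KDSR had 142 CPM in dark_42 and 188 in blue_42, and HSD17B12, an enzyme of fatty acid elongation, had 167 and 146. Of 31 tested anoctamin and membrane contact genes, 0 were called in blue_42 minus dark_42 by edgeR or DESeq2, with 2 at an unadjusted edgeR p under 0.05. In dark_42 minus dark_3 edgeR called 5 higher and 3 lower, and in dark_42 minus dark_14 it called 2 higher and 0 lower. VAPA, an anchor of the endoplasmic reticulum at contact sites, was higher in dark_42 than in dark_3 (0.51, adjusted p = 0.00246, edgeR) and dark_14 (0.49, adjusted p = 0.00799, edgeR), as was the calcium pump gene ATP2B1 (0.41, adjusted p = 0.0189, and 0.54, adjusted p = 0.00864, edgeR). Against the other dark groups both genes thus went opposite to ANO8. In blue_42 minus dark_42, ATP2B1 (0.17) had the sign of ANO8 and VAPA (-0.28) did not.

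Of 32 tested adhesion genes of the immunoglobulin superfamily, edgeR called 0 higher and 1 lower in blue_42 minus dark_42. The gene was CEACAM6, which fell by 0.96 ± 0.19 (adjusted p = 0.0152, edgeR), from 16.3 CPM in dark_42 to 8.37 in blue_42, opposite to IGSF9. Against dark_3, edgeR called 6 of the 32 higher in dark_42 and 1 lower, beside 17.7% of all tested genes called in either direction. In dark_42 minus dark_14, 0 of the 32 were higher and 6 lower, beside 7.04%. In dark_14 minus dark_3, 12 were higher and 1 lower, beside 12.7%. The lowest values in dark_42 minus dark_14 were those of NCAM1 (-2.84) and CADM2 (-2.68), adhesion genes best known from neurons, at means of 1.37 and 1.89 CPM. The neuronal marker sum given above was lower in both dark_42 libraries than in both dark_14 libraries, and its part in these counts was not tested. Both dark_42 libraries were below those of dark_3, dark_14 and blue_42 for 9.17% of all tested genes. That pattern was met by 6 of 35 polarity and Wnt genes, 1 of 32 Mediator genes, 4 of 40 microtubule genes and 3 of 41 ligase genes. The counts were 2 of 35 for dehydrogenases, 1 of 31 for contact genes and 2 of 32 for adhesion genes.

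**Figure D3:**
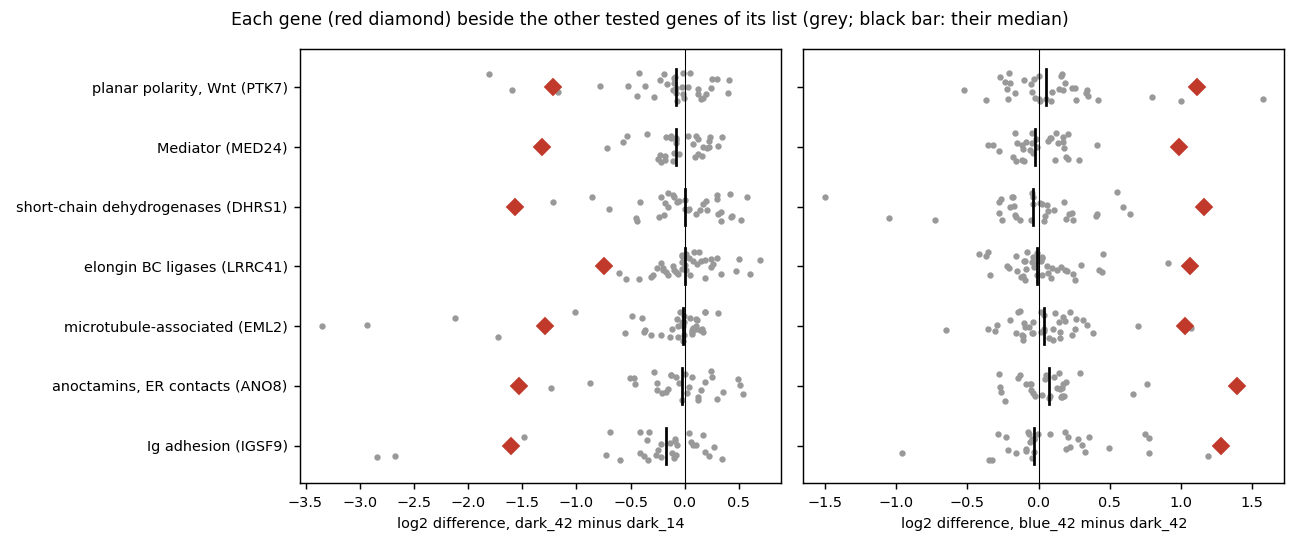
Log2 difference dark_42 minus dark_14 (left) and blue_42 minus dark_42 (right) for each of the 7 genes (red diamond) and the other tested genes of its list (grey points, 1 per gene, spread vertically for sight, black bar at their median). The medians lie near 0, and the 7 genes, chosen on these differences, lie toward the edge of their lists.

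The nearest tested gene on each side of each of the 7 was examined, 14 genes in all. Between dark_42 and blue_42, edgeR called 1 higher and 0 lower, with a median log2 difference of 0.25 and a range from -0.08 to 0.82. The gene was GTPBP3, a mitochondrial tRNA-modifying GTPase that starts 91 bases from ANO8 on the other strand. It averaged 17.4 CPM in dark_42, against 28.5 in dark_3, 27.2 in dark_14 and 27.6 in blue_42. Its log2 differences were 0.66 ± 0.14 for blue_42 minus dark_42 (adjusted p = 0.0197), -0.71 for dark_42 minus dark_3 (adjusted p = 0.00184) and -0.64 for dark_42 minus dark_14 (adjusted p = 0.0106), all by edgeR. GTPBP3, SRF, NOP9 and DDA1 were the 4 of the 14 with both dark_42 libraries below those of dark_3, dark_14 and blue_42. DDA1 had 40.3 CPM in dark_42, beside 43.5 in dark_3, 48.9 in dark_14 and 48.3 in blue_42, and edgeR called it in none of these comparisons. It overlaps ANO8 over 79 bases, where reads cannot be assigned with certainty. Over all tested genes 9.17% had this pattern.

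SRF, a transcription factor gene 9580 bases from PTK7, averaged 43.4 CPM in dark_42, against 97.6 in dark_3, 93.0 in dark_14 and 76.6 in blue_42. It was lower in dark_42 than in dark_3 (-1.17, adjusted p = 0.00140) and dark_14 (-1.11, adjusted p = 0.00535) by edgeR, while blue_42 minus dark_42 was 0.82 ± 0.20 (adjusted p = 0.0658, edgeR). NOP9, an RNA-binding protein gene of the ribosome pathway, starts 29 bases from DHRS1 on the other strand. It had 31.3 CPM in dark_42 and 38.5 in blue_42, a log2 difference of 0.30, beside 1.16 for DHRS1. UQCRH, a subunit gene of respiratory complex III, starts 23 bases from LRRC41 and had 297 and 299 CPM, a difference of 0.01, beside 1.07 for LRRC41. THRA, a thyroid hormone receptor gene that overlaps MED24, was higher in dark_42 than in dark_3 (0.62, adjusted p = 0.0107, edgeR), whereas MED24 was lower.

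**Figure D4:**
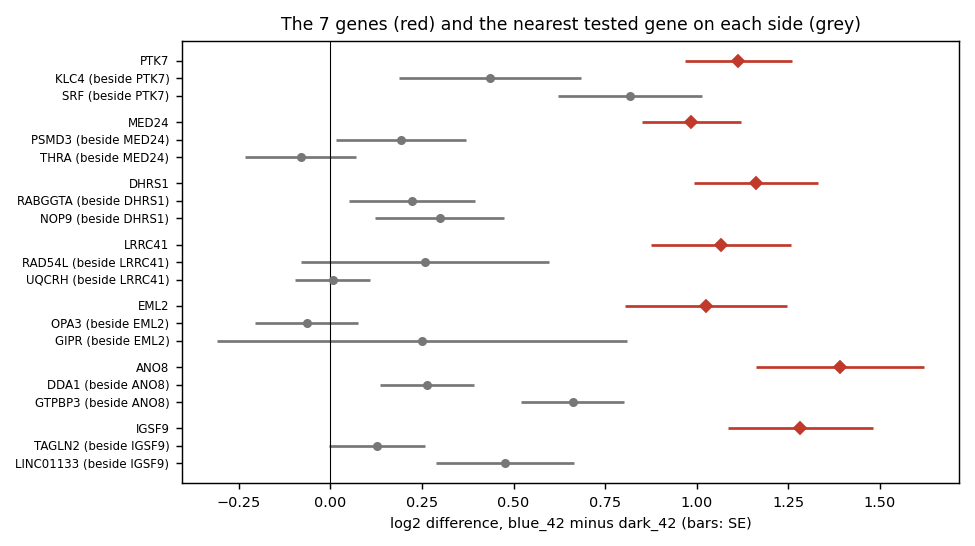
Log2 difference blue_42 minus dark_42 (horizontal axis, bars SE) for the 7 genes (red diamonds) and the nearest tested gene on each side (grey circles). The 7 genes lie between 0.99 and 1.39 and the neighbours between -0.08 and 0.82.

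The transcripts of the 7 genes had a high GC content. The choice did not use this value, but the differences it used varied with GC over all genes, as given below. The GC is that of the longest coding transcript as a whole, whereas the tags came from the 3′ end. The longest coding transcript of each had 55.6% to 65.8% GC, and all 7 lay above the median of 48.4% over 11743 tested genes with a value. Their lengths, 1480 to 4272 bases, were spread around the median of 3467. The promoter windows had a median GC of 69.0%, against 65.3% for tested genes, but ranged from 53.3% (MED24) and 56.3% (LRRC41), below the lower quartile of 58.7% for tested genes, to 73.7% (EML2). Differences over all genes also varied with GC content. Tested genes were divided into 10 classes by transcript GC. The median of dark_42 minus dark_14 ran from 0.12 in the lowest class to -0.12 in the ninth, with -0.08 in the tenth. That of dark_42 minus dark_3 ran from 0.11 to -0.05, with -0.006 in the tenth. Single libraries carried much of this. Relative to all libraries, the class median ran from 0.11 in the lowest to -0.10 in the ninth class in dark_42 a, but from 0.05 to -0.03 in dark_42 b, with 0.01 in the tenth. In dark_14 a it ran the other way, from -0.06 to 0.13. The part of this trend in the levels of the 7 genes was not tested. Relative to the median of their own class, the 7 genes differed by -1.52 (IGSF9) to -0.67 (LRRC41) in the first and by -1.46 (MED24) to -0.63 (EML2) in the second comparison. Both comparisons entered the choice, so these values carry no test.

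**Figure D5:**
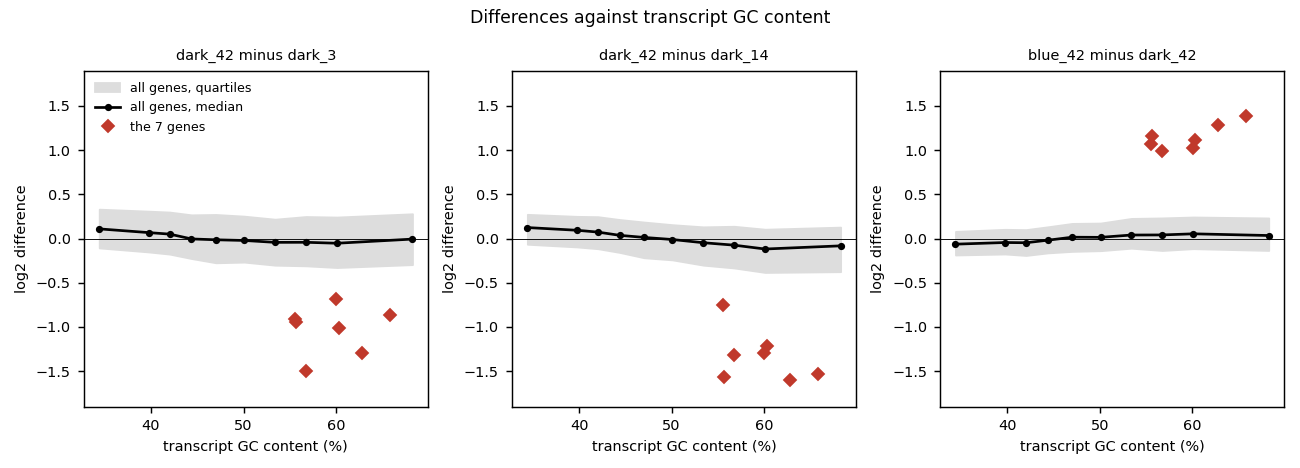
Log2 difference (vertical axis) against transcript GC content in percent (horizontal axis) for dark_42 minus dark_3, dark_42 minus dark_14 and blue_42 minus dark_42, with the median (line) and quartiles (grey) of 10 classes of tested genes and the 7 genes as red diamonds. The class medians lie between -0.12 and 0.12, and the 7 genes lie outside the grey band in each panel.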

How the data were processed

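Transcripts of 12 HaCaT libraries (QuantSeq 3′ mRNA-Seq FWD, total RNA) were counted per gene. The deposited table holds raw whole-number counts, and per the submitters' processing notes STAR, featureCounts and the GRCh38 build were used. For versions, annotation release, strand setting and molecular identifiers: not given in the sources used here.

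From these counts, edgeR 4.0.16 in R 4.3.3 kept 12878 genes (filterByExpr, minimum count 10), scaled libraries by TMM and fitted 1 robust quasi-likelihood model with a mean for each of 6 groups (6 residual degrees of freedom). Two-sided tests were used, with Benjamini-Hochberg adjustment over all tested genes, called at an adjusted p under 0.05. SEs were derived from the test statistic. The biological coefficient of variation was 9.41%. Libraries a and b of a group were compared by chi-square, which came to 1.62 to 8.30 times its degrees of freedom, above sampling noise, and each counted as 1 replicate. Intervals for single counts are not printed, and the floor of 3 counts covers counting error only.

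The 7 genes and the related-gene lists were chosen with earlier results of these data known. Named besides the 7 were the 10 genes most like them in profile, the nearest tested neighbours, and, per list, genes called in blue_42 minus dark_42 or called the same way against both dark_3 and dark_14 (at most 4), or, with none, the 2 most abundant. The genes at the edge of the choice, NCSTN and MOSPD3, were named after their values were seen. So were the list genes RHOA, FZD7, PRICKLE1, VANGL2, INVS, MMP14, NCAM1 and CADM2. CTNNB1, LRP5 and LRP6 were named as members of the beta-catenin branch. Positions and transcript GC came from GENCODE release 29, which matched all 12878 tested rows by identifier, and promoter windows from RefSeq (GRCh38.p14). Alternatives were RLE scaling, DESeq2 1.42.0, no filter, a filter at 5 CPM, fits on the compared libraries alone, a replicate block and leaving out each library. Leaving out the 14-session libraries and centring by GC were added after the data were seen. Scripts were tested on simulated counts.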

Additional observations from a re-analysis of the deposited data

Results flagged for a closer look

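LRRC41 had light differences of opposite sign at 3 and 14 sessions, and neither passed its own test. After 3 sessions both blue libraries lay below both dark libraries, a log2 difference of -0.44 ± 0.19 (SE, adjusted p = 0.676, edgeR). After 14 sessions both blue libraries lay above both dark libraries, by 0.36 ± 0.21 (adjusted p = 0.860, edgeR). Of all tested genes, 19.9% had both blue libraries below both dark ones at 3 sessions, and 16.6% had them above at 14. With 1 library left out, the first value ran from -0.77 (without blue_3 a) to -0.20 (without blue_3 b) and the second from 0.20 (without blue_14 a) to 0.48 (without blue_14 b). The difference between these effects was 0.80 ± 0.29 in the edgeR interaction test, with an unadjusted p of 0.0118 and an adjusted p of 0.440, so it did not pass the correction. PTK7 showed the next largest difference of this kind among the 7 genes, 0.55 ± 0.20 (adjusted p = 0.461, edgeR), with overlapping libraries at 3 sessions.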

How the results depend on the processing

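The count of 7 genes below in dark_42 is fixed by how they were chosen, so its recurrence under the alternatives is no sign of stability. Over the 6 tested comparisons, 465 of 504 values for the 7 genes with 1 library left out kept their direction and side of the threshold, 4 lost a call, 17 gained one and 18 changed sign, and of 266 values under other alternatives 251 kept both, 13 gained a call and 2 changed sign. Where a group keeps 1 library, the fit takes its spread from the other groups. Sign changes touched differences of at most 0.31. With 1 library left out, the ranges of those differences were -0.29 to 0.067 (PTK7) and -0.40 to 0.14 (EML2) for blue_3 minus dark_3, -0.061 to 0.44 (PTK7) and -0.062 to 0.49 (IGSF9) for dark_14 minus dark_3, -0.23 to 0.24 (ANO8), -0.61 to 0.11 (EML2) and -0.18 to 0.44 (IGSF9) for blue_14 minus dark_14, -0.16 to 0.23 (IGSF9) for blue_14 minus blue_3, -0.30 to 0.13 (DHRS1) for blue_42 minus blue_3, and -0.37 to 0.11 (ANO8), -0.15 to 0.14 (EML2) and -0.14 to 0.12 (LRRC41) for blue_42 minus blue_14. Without a filter and with the replicate block, EML2 in blue_42 minus blue_14 was 0.019 and 0.016. The letters did not pair the libraries throughout: of 15 correlations between same-lettered deviations, from -0.44 to 0.41, 4 were over 0.1. The highest was that of dark_42 with blue_42. Blue_14 had 0.28 with blue_42 and 0.22 with dark_42, and the lowest value was that of dark_14 with dark_42. With the replicate block LRRC41 gained a call in blue_42 minus blue_3 (0.61, adjusted p = 0.0275, edgeR), and no other call of the 7 genes changed.

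The number of genes called varied more. With 1 library left out it ran from 336 to 1987 for dark_14 minus dark_3 (1638 with all), 0 to 6 for blue_3 minus dark_3 (2), 0 to 11 for blue_14 minus dark_14 (0), 110 to 1076 for blue_14 minus blue_3 (801), 258 to 1224 for blue_42 minus blue_3 (1002), 7 to 253 for blue_42 minus blue_14 (31), 765 to 2574 for dark_42 minus dark_3 (2284), 284 to 1113 for dark_42 minus dark_14 (907) and 24 to 235 for blue_42 minus dark_42 (158). Without a filter it was 54 for blue_3 minus dark_3, 14 for blue_14 minus dark_14, 1348 for blue_14 minus blue_3, 298 for blue_42 minus blue_14 and 420 for blue_42 minus dark_42. DESeq2 gave 1 for blue_3 minus dark_3, 2 for blue_14 minus dark_14, 615 for blue_42 minus blue_3 and 53 for blue_42 minus blue_14. Fits on the compared libraries alone gave 2651 for dark_14 minus dark_3, 22 for blue_3 minus dark_3, 503 for blue_14 minus blue_3, 443 for dark_42 minus dark_14 and 100 for blue_42 minus dark_42. Without the 14-session libraries blue_3 minus dark_3 gave 8 and blue_42 minus dark_42 gave 246. The filter at 5 CPM and the replicate block each gave 0 for blue_3 minus dark_3. Except where libraries were left out, the cause was not tested. Depth limits ANO8 most, with 30 and 37 reads in dark_42.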
